A study of Mus musculus with 12 samples.

Results

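The core circadian clock genes described here are the 10 genes Arntl, Npas2, Clock, Per1, Per2, Per3, Cry1, Cry2, Nr1d1 and Nr1d2, chosen by name out of the 32285 genes of the count matrices. All 10 were found, and their unique molecular identifiers (UMIs, each counting 1 captured RNA molecule) were summed over the hepatocyte nuclei and, separately, over the endothelial nuclei of each sample. The samples came from 8 wild-type (WT) mice, given as C57BL6J in the labels and as adult male C57BL/6NTac mice on chow in the study's methods, and no gene was altered in any group. From each mouse a piece of Liver (L) was taken and frozen during perfusion with an EGTA buffer, the remaining liver was digested with collagenase and spun at low speed to give a Cell Suspension (CS), and part of these cells was plated and cultured for 24 hours in medium with dexamethasone and insulin to give Primary Hepatocytes (PH). The suspension and the culture are enriched for hepatocytes but still hold other liver cells, and the cultured endothelial-like nuclei are those that came through this enrichment. Nuclei of the 24 samples were tagged with hashtag antibodies and run as 6 pools of 4 samples, a pool being 1 droplet run of the 10x platform, and a sample is named by its group and mouse, so that L3 is the Liver of mouse 3. Pools 1 and 6 held no Primary Hepatocyte sample and pools 3 and 4 held no Liver, so pool and group are partly confounded. The time of day of collection is not given in the sources used here.

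The clock is a feedback loop of transcription that runs with a period of about a day in nearly every cell. BMAL1, the product of Arntl, pairs with CLOCK or with its paralog NPAS2 and activates genes that carry E-box sequences, among them Per1 to Per3, Cry1, Cry2, Nr1d1 and Nr1d2. The PER and CRY proteins accumulate, enter the nucleus and repress BMAL1 and CLOCK, while the nuclear receptors REV-ERB alpha and beta, encoded by Nr1d1 and Nr1d2, repress Arntl and Npas2 through ROR elements. In liver the loop times bile acid, glucose and lipid metabolism, Arntl peaks at the opposite phase to Nr1d1 and the Per genes, and Per1 is also a known immediate target of glucocorticoid and cAMP signalling.

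A total of 53467 nuclei carried the study's labels, and those counted as hepatocyte nuclei were 15166 (L), 13339 (CS) and 16283 (PH), those counted as endothelial 2474 (L), 1152 (CS) and 1809 (PH). The deposited table of nuclei names cell types in Liver and Cell Suspension but lists nearly all cultured nuclei as cultured cells, so the 7 clusters of that label were divided here by marker genes: 5 were read as hepatocyte-like, 1 as stellate-like and left out, and 1 (cluster 12, 1761 nuclei) as endothelial-like. The 5 hepatocyte-like clusters were read so by default, with summed hepatocyte markers of 3844 to 10479 CPM and none of these markers among their 10 leading genes over the other cultured clusters. The largest of them, cluster 0 (5977 nuclei, 18.8% to 50% of the hepatocyte nuclei of a Primary Hepatocyte sample), had the biliary marker Pkhd1 among its leading genes and summed biliary markers of 306.1 CPM, where the other 4 had 67.4 to 195.4 CPM and the biliary clusters of the authors 3906 and 11081 CPM, so the results after culture are also given without it. Cluster 12 had Pecam1 and Cdh5 among its 10 leading genes over the other cultured clusters, but its nuclei had a median of 0.24 of the median UMIs of their sample and summed hepatocyte markers of 3905 CPM beside endothelial markers of 4015 CPM. Cluster 8 of the hepatocyte-like clusters (2321 nuclei, 1450 of them cultured) was led by mitochondrial genes and held few UMIs, and leaving it out changed no call of a member in the group comparisons. It had the highest hepatocyte marker sum of the 5, 10479 CPM. Cluster 14 (1686 nuclei) had the lowest, 3844 CPM, which was under the 3905 CPM of cluster 12. The endothelial markers of cluster 14 summed to 402.5 CPM, against 86.8 to 247.4 CPM in the other 4 hepatocyte-like clusters and 4015 CPM in cluster 12. Its name thus rests on the default alone, and no fit was run without it. Hepatocyte sums held 2104087 UMIs (CS7) to 29023569 UMIs (L5), and endothelial sums held 95289 UMIs (PH7, 29 nuclei) to 2578536 UMIs, so endothelial values rest on far fewer molecules. Levels are given as CPM, the count of a gene scaled to a common total of UMIs of the same nuclei with TMM factors, and all 3 splicing states (spliced, unspliced and ambiguous) were added. The 10 hepatocyte markers summed to 11687 to 16096 CPM in hepatocyte nuclei of Liver, 15038 to 19057 in suspension and 3313 to 7793 after culture, none of them at 0 in any group. The 10 endothelial markers summed to 9838 to 13220, 7015 to 12347 and 3599 to 6685 CPM in the endothelial nuclei, and to 26.9 to 46.6, 29.6 to 66.1 and 135.3 to 182.5 CPM in the hepatocyte nuclei, again with none at 0 in any group. The 10 stellate markers in hepatocyte nuclei went from a median of 37.1 CPM in Liver and 36 CPM in suspension to 177.6 CPM after culture, where they ranged from 81.2 to 644.9 CPM. The part of either list in the changes after culture was not tested. Hepatocyte markers in endothelial nuclei stood at a median of 23.05% of their level in the hepatocyte nuclei of the same sample in Liver, 24.5% in suspension and 60.65% after culture, where they reached 127.3%. Of all barcode sequences, 337 occurred in more than 1 pool.

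The upstream sequences of 4 members are shown because they carry the elements through which the loop is known to be wired, and because these genes differ in how they behaved in the data below. RefSeq start sites on GRCm38.p6 were available for 9 of the 10 members, with 13 windows of 250 bases before to 50 bases after a start, and Per2 had no window. Both strands were searched for the E-box CACGTG, the related E'-box CACGTT, and the ROR element TAGGTCA. The second form of the ROR element, TGGGTCA, was searched as well, with the D-box sequences TTATGTAA and TTACGTAA and the cAMP element TGACGTCA. None of these motifs overlapped another in the windows of the members. The 250 bases before the start are written 5′ to 3′ on the strand of the gene, with matches in capitals, for Per1 (chr11:69098699-69098948, plus strand), Per3 (chr4:151044666-151044915, minus strand), Cry1 (chr10:85185055-85185304, minus strand) and Nr1d1 (chr11:98775378-98775627, minus strand).

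Per1: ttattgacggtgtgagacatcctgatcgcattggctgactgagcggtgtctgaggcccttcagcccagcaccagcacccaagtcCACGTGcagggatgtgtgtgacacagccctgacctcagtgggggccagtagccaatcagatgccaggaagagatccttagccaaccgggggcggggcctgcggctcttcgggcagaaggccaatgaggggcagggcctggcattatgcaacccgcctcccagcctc
Per3: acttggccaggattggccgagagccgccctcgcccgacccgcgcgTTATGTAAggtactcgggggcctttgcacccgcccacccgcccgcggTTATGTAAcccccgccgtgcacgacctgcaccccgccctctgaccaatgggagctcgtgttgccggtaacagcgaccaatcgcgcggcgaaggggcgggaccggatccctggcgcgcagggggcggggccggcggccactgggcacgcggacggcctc
Cry1: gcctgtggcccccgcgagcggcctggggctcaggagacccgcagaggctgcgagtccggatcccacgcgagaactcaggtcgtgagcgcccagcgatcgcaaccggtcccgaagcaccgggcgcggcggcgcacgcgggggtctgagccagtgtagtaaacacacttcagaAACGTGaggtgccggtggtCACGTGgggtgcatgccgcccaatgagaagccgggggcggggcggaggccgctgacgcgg
Nr1d1: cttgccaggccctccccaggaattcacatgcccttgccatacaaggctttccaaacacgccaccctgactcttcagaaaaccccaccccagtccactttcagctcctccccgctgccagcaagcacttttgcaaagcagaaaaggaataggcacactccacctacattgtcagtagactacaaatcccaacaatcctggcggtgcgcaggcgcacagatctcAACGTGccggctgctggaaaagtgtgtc

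The window of Per1 held a CACGTG that begins 166 bases before its first start, and that of Cry1 held a CACGTG at -60 and a CACGTT on the opposite strand at -79. Nr1d1 had a CACGTT on the opposite strand at -28, and Cry2, on chr2, had the same motif on the opposite strand at -166. Per3 held the D-box TTATGTAA at -205 and again at -158, a sequence that DBP, TEF and HLF are known to bind. The second start of Arntl was followed at +31 by the ROR element TAGGTCA, shown in capitals in the stretch chr7:113207530-113207559 on the plus strand.

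Arntl: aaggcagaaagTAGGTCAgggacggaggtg

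Of all 32851 RefSeq windows of this length, 7.15% held CACGTG, 4.68% CACGTT, 2.61% TAGGTCA, 3.98% TGGGTCA, 0.938% TTATGTAA, 0.119% TTACGTAA and 1.79% TGACGTCA. None of the motifs occurred in the windows of Npas2, Clock and Nr1d2, which says only that these letters are not in these windows.

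In hepatocyte nuclei of Liver and Cell Suspension, the mice differed strongly in the level of most clock genes, and the same mice were high or low in both sample types. Arntl, the activator without which the loop does not run, measured 59.6, 17.9, 99.1, 15.5, 55.1, 9.13, 69.8 and 12.5 CPM in the Liver of mice 1 to 8. In the Cell Suspension of the same mice it measured 64.1, 16.7, 95.2, 18.4, 52.1, 11.3, 52.2 and 13.2 CPM. Mice 2, 4, 6 and 8 were thus low and mice 1, 3, 5 and 7 high in both, with no value in between, and the highest Liver value was 10.9 times the lowest. Clock, the partner of Arntl, showed the same division at a smaller amplitude, with 93.1 to 97.8 CPM in the Livers of mice 2, 4, 6 and 8 and 165 to 213 CPM in those of mice 1, 3, 5 and 7. In Cell Suspension, Clock lay at 89.2 to 134 CPM in mice 2, 4, 6 and 8 and at 155 to 277 CPM in mice 1, 3, 5 and 7. Npas2, the alternative partner, was low throughout Liver, at 2.43 to 10.8 CPM with a median of 3.31, and its values in mice 2, 4, 6 and 8 overlapped with those of the other mice.

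The Per genes, which encode the PERIOD repressors, were ordered the other way. Per3 measured 45.9, 144, 22.2, 161, 47.7, 145, 37.5 and 125 CPM in the Liver of mice 1 to 8, and 26.5, 97.4, 19.9, 113, 36.4, 106, 26.9 and 88.2 CPM in Cell Suspension. Per1 measured 12.2, 59.4, 11.5, 30.4, 9.81, 38.3, 10.6 and 61.3 CPM in Liver. Per2 measured 72.3, 49, 66.6 and 75.3 CPM in the Livers of mice 1, 3, 5 and 7 and from 101 to 146 CPM in those of mice 2, 4, 6 and 8. All 3 were higher in each of mice 2, 4, 6 and 8 than in any of mice 1, 3, 5 and 7, in Liver and again in Cell Suspension, so that Arntl and Clock were low where the Per genes were high. Nr1d1, the REV-ERB alpha gene that represses Arntl, was low in mice 6 and 8 in Liver, at 26.6 and 29.7 CPM, while the other 6 mice lay at 49.5 to 64 CPM. In Cell Suspension Nr1d1 reached 123, 178, 160 and 131 CPM in mice 1, 3, 5 and 7 and 66.6, 88.9, 46.8 and 61.9 CPM in mice 2, 4, 6 and 8, which did not overlap. The sets of mice were read from the levels of these same genes. The share of all genes that divide the mice likewise was not counted.

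Cry1 and Cry2, which encode the CRYPTOCHROME partners of PER, did not divide the mice in this way in Liver. Cry1 ranged from 9.89 to 29.7 CPM in Liver with a median of 21.3, and from 9.41 to 41 CPM in Cell Suspension. Cry2 ranged from 31.4 to 63.7 CPM in Liver with a median of 42.7, and its values overlapped between the mice that were low and those that were high in Arntl. In Cell Suspension the Cry2 level was 47.9 to 78 CPM in mice 2, 4, 6 and 8 and 31.7 to 44.4 CPM in the others. Nr1d2, the REV-ERB beta gene, was the most even member, at 188 to 262 CPM in Liver, a highest value only 1.4 times the lowest.

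Set beside the 8498 genes that averaged 10 CPM or more in Liver hepatocyte nuclei, whose between-mouse SD had a median of 0.23 on the log2(CPM + 1) scale, most members stood near the top. The SD was 1.27 for Arntl (percentile 99.2), 1.09 for Per1 and for Per3 (percentile 98.7 each), 0.56 for Clock and 0.55 for Per2, against 0.18 for Nr1d2 (percentile 29.0), and the median over the 10 members was 0.56. These percentiles describe the libraries and were not tested. The sums of mice 2, 4, 6 and 8 held 6872031 to 18019389 UMIs in Liver and those of mice 1, 3, 5 and 7 held 17649129 to 29023569 UMIs. With all sums thinned to 2104087 UMIs the median SD of the members was 0.55. The part of depth in the spread was not tested. In pool 1 the Arntl level was 99.1 CPM in L3 and 69.8 CPM in L7 against 12.5 CPM in L8, and in pool 6 it was 59.6 CPM in L1 against 17.9 CPM in L2 and 9.13 CPM in L6. The labels give no property that sets mice 2, 4, 6 and 8 apart from mice 1, 3, 5 and 7.

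After 24 hours of culture the division had largely gone. Arntl in Primary Hepatocytes measured 66.4, 37.7, 72.6, 36.8, 67, 51.6, 72.4 and 62.2 CPM in mice 1 to 8, so that mice 2, 4, 6 and 8 still held the 4 lowest values but within a 1.97-fold range in all. Without cluster 0, Arntl measured 38.3, 22.1, 44.4, 25.4, 34.6, 42.7, 44.5 and 39.9 CPM in these samples. Mice 6 and 8 then lay above mice 1 and 5, so that order did not hold. The part of cluster 0 in the order was not tested. Per1 ranged from 41 to 57.3 CPM and Per2 from 41.3 to 52.5 CPM, and neither separated the mice by the same order. In Primary Hepatocytes the SD was 0.39 for Arntl (percentile 90.7), 0.17 for Clock (percentile 36.1), 0.18 for Per1 (percentile 40.9), 0.14 for Per2 (percentile 19.3), 0.27 for Per3 and 0.28 for Cry1 (percentile 77.2), where the median gene had 0.2. The other members differed less from Liver in their spread, with Npas2 at 0.45 against 0.65, Nr1d1 at 0.48 against 0.49, Cry2 at 0.30 in both and Nr1d2 at 0.23 against 0.18. After culture Npas2 was at percentile 94.2, Cry2 at 80.9 and Nr1d2 at 62.5. The spread was not compared between groups by a test.

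**Figure D1:**
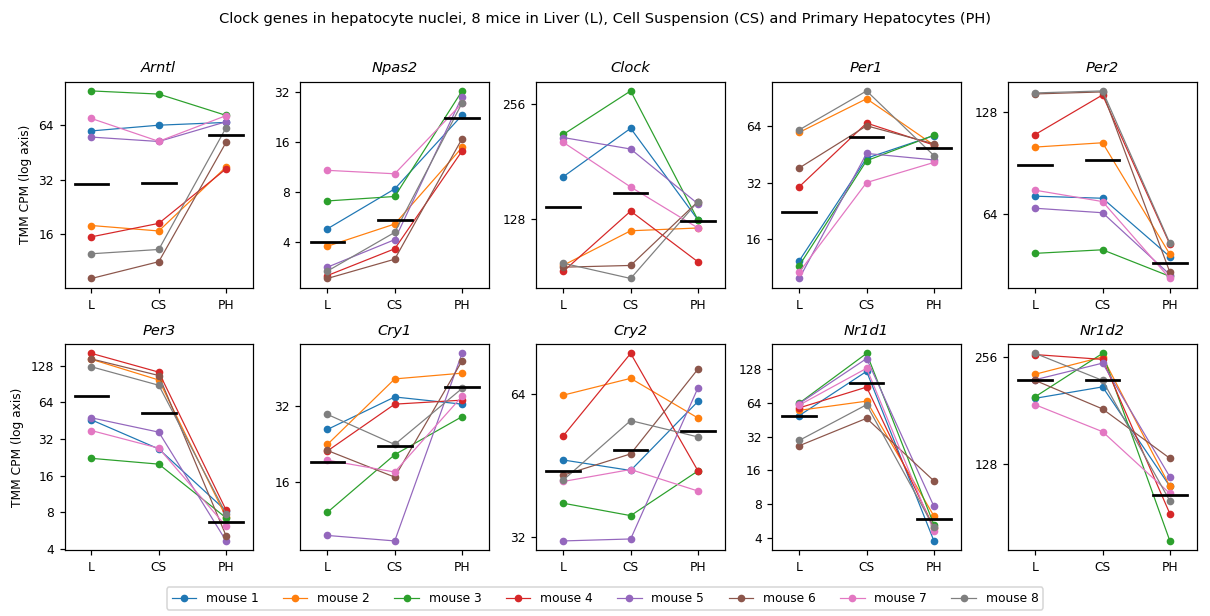
Levels of the 10 clock genes in hepatocyte nuclei, as TMM CPM on a log2 axis, in Liver (L), suspension (CS) and culture (PH), with 1 coloured line per mouse (n = 8) and black bars at the mean of the log2 values. Arntl spans 9.13 to 99.1 CPM in Liver and 36.8 to 72.6 CPM in Primary Hepatocytes, and Per3 and Nr1d1 lie below all Liver samples after culture.

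How closely Liver and Cell Suspension of the same mouse went together was measured as the change from Liver to Cell Suspension in each mouse, on the log2(CPM + 1) scale. The change in Arntl averaged 0.00 with an SD of 0.22 over the 8 mice, that in Per2 averaged 0.04 with an SD of 0.15, and that in Per3 averaged -0.47 with an SD of 0.17, each much smaller than the spread between mice given above. Clock changed by 0.13 on average with an SD of 0.32, and Nr1d2 by 0.00 with an SD of 0.24, which was no smaller than its spread between mice. Per1 and Nr1d1 were the exceptions, since both were higher in Cell Suspension in all 8 mice, Nr1d1 by 0.27 to 1.46 and Per1 by 0.59 to 2.11, and the gain of Per1 was largest in mice 1, 3, 5 and 7, whose Liver levels were lowest. Per3 was lower in Cell Suspension in all 8 mice, with changes of -0.15 to -0.77.

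An exact permutation test of Pearson's r over all pairings of the 8 mice, run on every gene that averaged 10 CPM or more and adjusted by Benjamini-Hochberg, called 6 of the 9 members tested for Liver with Cell Suspension (Arntl, Per1, Per2, Per3, Cry2 and Nr1d1), where 16.9% of all 8408 genes were called and the median r was 0.562. Npas2 lay under 10 CPM and was not tested. By Spearman's rho 4 of the 9 members were called (Arntl, Per2, Per3 and Nr1d1), against 5.6% of all genes. Clock passed by neither measure. Because the mice fell into separate sets for Arntl, Clock, Per1, Per2 and Per3, no r is given for these genes, and sets of 4 mice are too small for a correlation of their own. Cry2 had r = 0.87 and rho = 0.81 (exact permutation p = 0.00513, adjusted 0.0382 for r, and 0.0218, adjusted 0.113, for rho), and r was 0.84 without the 2 mice farthest from the median. Nr1d1 had r = 0.82 and rho = 0.93 (exact permutation p = 0.00632, adjusted 0.0428 for r, and 0.00223, adjusted 0.0398, for rho), but r was 0.53 without the 2 farthest mice, so its r rests on mice 6 and 8. Cry1 (r = 0.68, rho = 0.64, exact permutation p = 0.0703 and 0.0962, adjusted 0.18 and 0.258) and Nr1d2 (r = 0.44, rho = 0.43, p = 0.276 and 0.299, adjusted 0.438 and 0.495) did not pass, and r for Cry1 was 0.23 without 2 mice. The number called was 2 of 8 with spliced UMIs alone (2.33% of all genes) and 2 of 8 with unspliced UMIs alone (16.4%). With sums thinned to the smallest sample it was 4 of 9 (10.9%), and without cluster 8 it was 5 of 9 (17.6%). With all genes that averaged 1 CPM or more it was 5 of 10 (7.18%). Without mouse 2, 3, 6 or 8 it was 3 of 9 (4.78% to 8.76% of all genes). Over the 6 mice whose samples ran in different pools the median r of all genes was 0.549. The test could call little there, since 720 pairings give no p under 0.00139 and 234 of the 8405 genes would have to reach it.

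The same test found 0 of 10 members for Liver with Primary Hepatocytes and 0 of 10 for Cell Suspension with Primary Hepatocytes, as it did for 0 (0%) of the 8773 and 0 (0%) of the 8544 genes tested, with a median r over all genes of 0.052 and -0.113. At an unadjusted p under 0.05 the count was 0 members in each by Pearson's r and 1 in each by Spearman's rho. Arntl was also set against the other members across the Livers. Of 8 members, 0 passed the adjusted exact permutation test by Pearson's r and 0 by Spearman's rho, as did 0 (0%) of 8497 genes, with 6 and 4 members at an unadjusted p under 0.05, so the opposed order of Arntl and the Per genes stands here as a description of the 8 Livers.

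**Figure D2:**
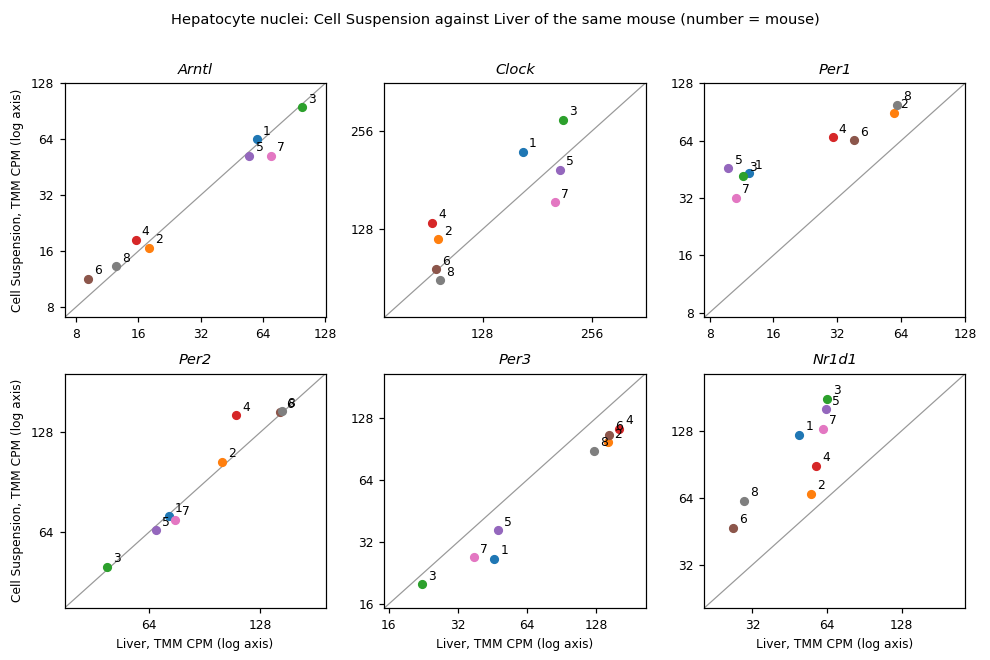
Cell Suspension against Liver level of the same mouse in hepatocyte nuclei for 6 clock genes, both as TMM CPM on log2 axes, with 1 point per mouse labelled by its number and a grey line at equality. Arntl, Clock and Per2 lie near the line and Per3 below it, with mice 2, 4, 6 and 8 apart from mice 1, 3, 5 and 7, and Per1 and Nr1d1 lie above it in all 8 mice.

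The comparison of Cell Suspension with Liver asks what isolation does to the clock genes. In hepatocyte nuclei Per1 and Nr1d1 were higher in Cell Suspension and the other 8 members did not pass, which makes 2 of 10 members against a background of 22.3% of 26778 genes (edgeR's quasi-likelihood test, Benjamini-Hochberg adjusted p under 0.05). Per1 had a mean of 29.2 ± 21.9 CPM in Liver and 60.3 ± 24.1 CPM in Cell Suspension (SD, n = 8), and Cell Suspension ranged from 32 to 99 CPM with a median of 55.1. Its log2 fold change was 1.07 (SE 0.32, adjusted p = 0.0145 by edgeR), and the groups overlapped although it was higher in 8 of 8 mice. Nr1d1 had a mean of 50.9 ± 14.8 CPM in Liver and 107 ± 48.1 CPM in Cell Suspension (SD, n = 8), a log2 fold change of 1.07 (SE 0.26, adjusted p = 0.0023 by edgeR), and was also higher in 8 of 8 mice. Both calls were lost when the pool was added to the edgeR fit, with log2 fold changes of 1.18 (adjusted p = 0.0579) and 0.75 (adjusted p = 0.0679), while the share of all genes called rose to 24.6%.

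The members that did not pass had log2 fold changes between -0.49 (Per3, SE 0.36, adjusted p = 0.386) and 0.29 (Cry1, SE 0.23, adjusted p = 0.416) by edgeR, with Npas2 at 0.25, Clock at 0.13, Per2 at 0.07, Cry2 at 0.19 and Nr1d2 at 0.01. For Arntl the value was -0.08 with an interval of 2 SE from -0.94 to 0.78, so that changes within these bounds could not be told from none. With the mouse as a block, edgeR called the same 2 members against 23.5% of all genes, with Per1 at 1.24 and Nr1d1 at 1.03, and Per3 at -0.47 (adjusted p = 0.156) did not pass even though it was lower in 8 of 8 mice. Beside these changes, 8 of 8 immediate early genes were higher in Cell Suspension, with a median log2 fold change of 5.18, and 3 of 8 glucocorticoid-induced genes were higher and 0 lower (4 called with the mouse as a block). The part of these responses in the change of Per1 was not tested.

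After culture the clock genes did not move as 1 block. In Primary Hepatocytes against Liver, hepatocyte nuclei had higher Npas2, Cry1 and Per1, lower Per2, Per3, Nr1d1 and Nr1d2, and no call for Arntl, Clock and Cry2, so 7 of 10 members were called (3 higher, 4 lower) against a background of 53.7% of 26778 genes by edgeR. The share of members called was thus not far above that of all genes. The medians over the 10 members and over all genes were 0.04 and 0.1 on the log2 scale. Npas2, Per3, Nr1d1 and Nr1d2 did not overlap between the groups, and the share of all genes without overlap was not counted.

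Among the activators, Npas2 rose most. It lay at 14.1 to 32.3 CPM in Primary Hepatocytes with a median of 25.1, above every Liver and every Cell Suspension sample. Its log2 fold change against Liver was 2.30 (SE 0.28, adjusted p = 2.29e-08 by edgeR) and against Cell Suspension 2.05 (SE 0.29, adjusted p = 5.05e-07). Arntl averaged 42.3 ± 33.3 CPM in Liver and 58.3 ± 14.6 CPM in Primary Hepatocytes (SD, n = 8), and its log2 fold change of 0.45 (SE 0.42, adjusted p = 0.396 by edgeR) did not pass. Compared within mice, Arntl was higher after culture in 7 of 8, and with the mouse as a block edgeR gave 0.93 (adjusted p = 0.00155) against Liver and 0.95 (adjusted p = 0.00162) against Cell Suspension. With the pool in the fit edgeR gave 0.12 (adjusted p = 0.888) and 0.38 (adjusted p = 0.53). Clock averaged 147 ± 56.4 CPM in Liver and 127 ± 14.5 CPM in Primary Hepatocytes (SD, n = 8), with a log2 fold change of -0.21 and an interval of 2 SE from -0.63 to 0.22, and it was higher in 4 of 8 mice.

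The repressors divided. Per3 fell to 4.67 to 8.36 CPM in Primary Hepatocytes, below every Liver sample (22.2 CPM or more), with a log2 fold change of -3.73 (SE 0.41, adjusted p = 3.05e-09 by edgeR), or 13.2-fold. Per2 fell from 95.7 ± 36.2 to 46.2 ± 4.65 CPM (SD, n = 8), a log2 fold change of -1.05 (SE 0.22, adjusted p = 0.000125 by edgeR), and was lower in all 8 mice. Cry1 rose from 20.3 ± 6.57 to 38.9 ± 8.01 CPM (SD, n = 8), a log2 fold change of 0.95 (SE 0.22, adjusted p = 0.00055 by edgeR), and was higher in all 8 mice. Cry2 averaged 44.9 ± 9.73 CPM in Liver and 54.7 ± 11.6 CPM in culture (SD, n = 8), and its log2 fold change of 0.29 (SE 0.17, adjusted p = 0.147 by edgeR) did not pass, although it passed with size factors by the RLE method (0.38, adjusted p = 0.0494), without mouse 4 (0.43, adjusted p = 0.0317) and with spliced UMIs alone. With the pool in the edgeR fit, Per2 stood at -0.76 (adjusted p = 0.0513) and Cry1 at 0.65 (adjusted p = 0.118), so that neither passed, in a fit that called 49% of all genes. Liver and Primary Hepatocyte samples ran together only in pools 2 and 5, so this fit cannot fully separate pool from group.

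Per1 was the least certain of the calls against Liver. Its level in Primary Hepatocytes, 41 to 57.3 CPM, lay within the range of the Livers and was higher than Liver in 6 of 8 mice, all of mice 1, 3, 5 and 7 among them. The log2 fold change was 0.78 (SE 0.32, adjusted p = 0.0392 by edgeR), and the call was lost without mouse 1 (0.63, adjusted p = 0.12), 3 (0.62, adjusted p = 0.12), 4 (0.84, adjusted p = 0.0539), 5 (0.67, adjusted p = 0.0852) or 7 (0.68, adjusted p = 0.079) and with the pool in the fit (1.03, adjusted p = 0.119). With unspliced UMIs alone its direction turned, at -0.08 (adjusted p = 0.852). Against Cell Suspension Per1 stood at -0.29 (SE 0.32, adjusted p = 0.477 by edgeR).

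Both REV-ERB genes fell. Nr1d1 lay at 3.75, 6.26, 5.24, 4.91, 7.64, 12.9, 4.58 and 4.95 CPM in Primary Hepatocytes of mice 1 to 8, where its lowest Liver value was 26.6 CPM. The log2 fold change was -3.02 (SE 0.28, adjusted p = 7.03e-11 by edgeR) against Liver and -4.09 (SE 0.29, adjusted p = 2.78e-13) against Cell Suspension, the group in which its level was highest. Nr1d2 averaged 222 ± 28 CPM in Liver and 106 ± 16.5 CPM in Primary Hepatocytes (SD, n = 8), with no overlap, a log2 fold change of -1.06 (SE 0.12, adjusted p = 7.65e-09 by edgeR) and an almost equal -1.07 (SE 0.12, adjusted p = 7.18e-09) against Cell Suspension. The 2 paralogs thus stood at -3.02 and -1.06 against Liver, a gap that was not tested.

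Against Cell Suspension, hepatocyte nuclei of Primary Hepatocytes had 2 members higher (Npas2 and Cry1) and 4 lower (Per2, Per3, Nr1d1 and Nr1d2), against a background of 50.4% of genes by edgeR. Per2 stood at -1.12 (adjusted p = 6.52e-05), Per3 at -3.24 (adjusted p = 4.04e-08) and Cry1 at 0.66 (SE 0.23, adjusted p = 0.0149), the last of which was lost without mouse 6 (0.54, adjusted p = 0.0683) and with the pool in the fit (0.55, adjusted p = 0.0617), a fit in which Clock passed instead (-0.52, adjusted p = 0.0456). By splicing state the edgeR calls against Cell Suspension differed. With spliced UMIs alone Per2 did not pass (-0.60, adjusted p = 0.178 by edgeR) and Cry2 did (0.57, adjusted p = 0.00628). With unspliced UMIs alone Per1 passed as lower (-0.81, adjusted p = 0.0266). Arntl (0.54, adjusted p = 0.325 by edgeR), Clock (-0.34, adjusted p = 0.201) and Cry2 (0.10, adjusted p = 0.661) did not pass. With the mouse as a block, edgeR called 8 members against Liver (53.4% of all genes) and 7 against Cell Suspension (50.0%), Arntl being the addition in both. Primary Hepatocytes are set against Liver and against Cell Suspension with the same cultured samples, so these comparisons are not independent of each other. The summed hepatocyte markers were lower in Primary Hepatocytes than in any Liver or Cell Suspension sample. The part of this in the change of the clock genes was not tested.

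The calls after culture were fitted again without cluster 0, an alternative chosen after seeing the data, which left 7 members called against Liver (54.9% of all genes) and 6 against Cell Suspension (51.6%) by edgeR. Npas2 depended most on that cluster. In the nuclei of cluster 0 it measured 39.4 to 77 CPM (here without TMM factors) over the 8 samples, and in the other hepatocyte-like clusters 9.67 to 17.2 CPM. Without cluster 0 its log2 fold change was 0.80 against Liver (adjusted p = 0.0105 by edgeR) and 0.57 against Cell Suspension (adjusted p = 0.0891), or 1.0 (adjusted p = 4.4e-05) and 0.62 (adjusted p = 0.0089) with the mouse as a block, so that both passed there. Its levels of 6.81 to 11.3 CPM without cluster 0 overlapped with those of Liver. Arntl measured 84.2 to 141 CPM in cluster 0 and 30.6 to 67.7 CPM in the others, and without cluster 0 it stood at -0.27 against Liver (adjusted p = 0.631 by edgeR). With the mouse as a block as well, Arntl stood at 0.24 (adjusted p = 0.492 by edgeR) and was not called, and Cry2 passed instead (0.40, adjusted p = 0.0202). Clock passed as lower against Cell Suspension without the block (-0.54, adjusted p = 0.0375 by edgeR) and not with it (-0.41, adjusted p = 0.0512). The calls of Per1 (0.83), Per2 (-1.29), Per3 (-3.79), Cry1 (1.05), Nr1d1 (-2.80) and Nr1d2 (-1.0) against Liver remained without cluster 0 by edgeR, with adjusted p from 8.94e-10 (Nr1d1) to 0.0271 (Per1). Levels of clusters are descriptions, since the clusters were formed from expression.

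**Figure D3:**
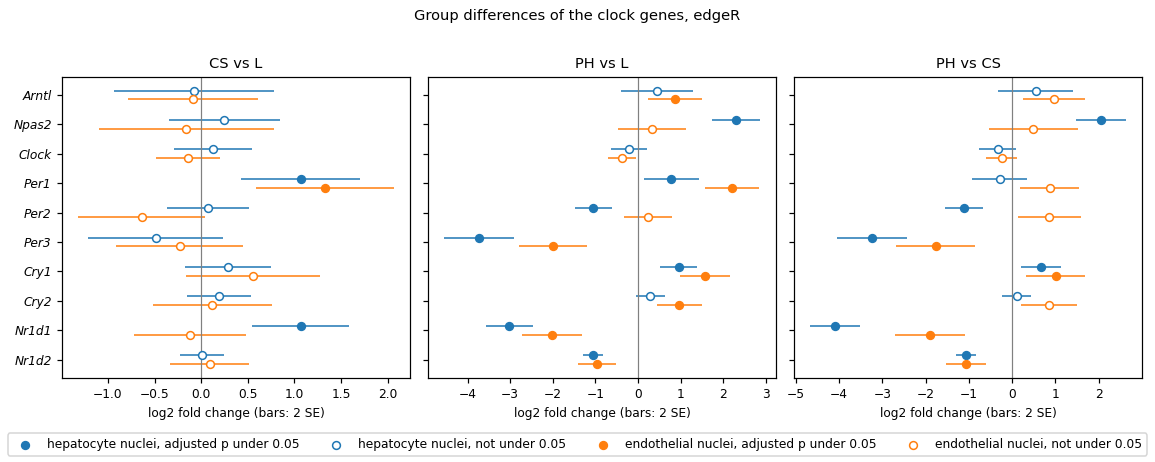
Log2 fold changes of the 10 clock genes from edgeR for the 3 comparisons, in hepatocyte nuclei (blue) and endothelial nuclei (orange), with bars of 2 SE on either side and filled points where the adjusted p is under 0.05. Per3, Nr1d1 and Nr1d2 lie to the left in both cell types after culture, Npas2 stands at 2.30 in hepatocyte nuclei against Liver (0.80 without cluster 0, not plotted), and Per1 stands to the right in both cell types in Cell Suspension.

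Because the matrices keep spliced and unspliced molecules apart, the members could also be read by splicing state. Unspliced molecules stand for pre-mRNA and spliced ones for processed RNA still in or attached to the nucleus. Unspliced UMIs made up 94.6% of all hepatocyte UMIs of Npas2, 90.7% of Arntl and 87.9% of Cry1, but 36.3% of Nr1d1 and 15.0% of Cry2. Per3 had 9118 spliced, 5606 ambiguous and 0 unspliced UMIs, and 423 of the 7981 genes with at least 1000 spliced UMIs likewise had 0 unspliced, so no ratio could be formed for it, and its changes are those of spliced and ambiguous molecules. The ratio of unspliced to spliced UMIs, with 1 added to each, was tested in limma for the 9 other members over the hepatocyte nuclei.

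The ratio of the median gene changed by -0.74 on the log2 scale from Liver to Cell Suspension and by -0.65 from Liver to Primary Hepatocytes, so member values are read against that shift. The calls themselves test a change from 0 and not from the median gene. In Cell Suspension 4 of 9 members passed, all lower, against a background of 74.1% of 10042 genes. Relative to the median gene these stood at -0.26 (Arntl), -0.08 (Per1), 0.02 (Per2) and 0.38 (Cry2). In Primary Hepatocytes against Liver 7 of 9 passed, all lower, against 70.9%. Of these, Clock (0.06), Nr1d1 (0.07), Cry1 (0.16) and Nr1d2 (0.19) stood above the median gene, and Per1, Per2 and Cry2 (-0.24) below it. Against Cell Suspension 6 of 9 passed, 5 lower and Arntl higher, against 33.2%. Per1 moved furthest from the median gene, with 2.65 ± 1.09 unspliced per spliced UMI in Liver, 1.48 ± 0.594 in Cell Suspension and 0.585 ± 0.15 after culture (SD, n = 8). Its log2 change against Liver was -2.10 (SE 0.22, adjusted p = 2.65e-09 by limma), which is -1.45 relative to the median gene. Per2 was next among those below the median gene, from 8.52 ± 4.87 in Liver to 2.57 ± 0.473 in Primary Hepatocytes (SD, n = 8), a log2 change of -1.55 (SE 0.28, adjusted p = 1.52e-05 by limma) and -0.90 relative to the median gene. Calls near the threshold depended on single mice: that of Cry2 in Cell Suspension was lost without mouse 1, 3, 6, 7 or 8 (adjusted p = 0.0526 to 0.0858 by limma) and that of Cry1 after culture without mouse 1, 3, 4, 6 or 7 (adjusted p = 0.0582 to 0.12), while Per2 lost its call in Cell Suspension against Liver without mouse 8 (adjusted p = 0.097) and in culture against Cell Suspension without mouse 1 or 7 (adjusted p = 0.056 and 0.0602). The pseudocount moved some of these calls in limma. With 5 UMIs added in place of 1, Npas2 passed as higher after culture, at 1.16 against Liver (adjusted p = 0.000103) and 1.64 against Cell Suspension (adjusted p = 1.09e-06). With 1 added it stood at 0.47 (adjusted p = 0.194), which is 1.12 above the median gene, and at 0.66 (adjusted p = 0.117). With 5 added Cry1 passed in Cell Suspension (-0.47, adjusted p = 0.0413) but not after culture against Liver (-0.36, adjusted p = 0.126), and Cry2 in Cell Suspension did not pass (-0.30, adjusted p = 0.0632). With the ambiguous UMIs counted as spliced, limma called Cry1 in Cell Suspension (-0.47, adjusted p = 0.046) and no longer Cry2 there (-0.23, adjusted p = 0.105) or in culture against Cell Suspension (-0.24, adjusted p = 0.144). Without cluster 0 the ratio calls of the other 8 members did not change, and Npas2 had too few UMIs to be tested.

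Read by state, Per1 differed between Primary Hepatocytes and Liver in spliced molecules (log2 fold change 1.52, SE 0.37, adjusted p = 0.000646 by edgeR) and not detectably in unspliced ones (-0.08, SE 0.30). Per2 showed the converse, with -1.22 in unspliced molecules (SE 0.20, adjusted p = 3.71e-06 by edgeR) and -0.25 in spliced ones (SE 0.37, adjusted p = 0.585). Cry2 rose in spliced molecules (0.53, SE 0.17, adjusted p = 0.00911 by edgeR) and stood at 0.02 in unspliced ones (SE 0.17, adjusted p = 0.942). Npas2, Cry1, Nr1d1 and Nr1d2 passed in the same direction in both states, with Nr1d1 at -2.99 in spliced and -3.38 in unspliced molecules. In Cell Suspension against Liver, Nr1d1 was higher in both states (0.77 and 1.04), and Per1 passed in spliced molecules (1.06, adjusted p = 0.0377 by edgeR) and missed in unspliced ones (0.73, adjusted p = 0.0798). Arntl had 28.2 ± 12 unspliced per spliced UMI in Liver, 13.6 ± 4.99 in Cell Suspension and 21.2 ± 3.25 after culture (SD, n = 8), and its log2 change of 0.81 from Cell Suspension to culture (SE 0.21, adjusted p = 0.00309 by limma) was the only rise called among the members with 1 UMI added.

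**Figure D4:**
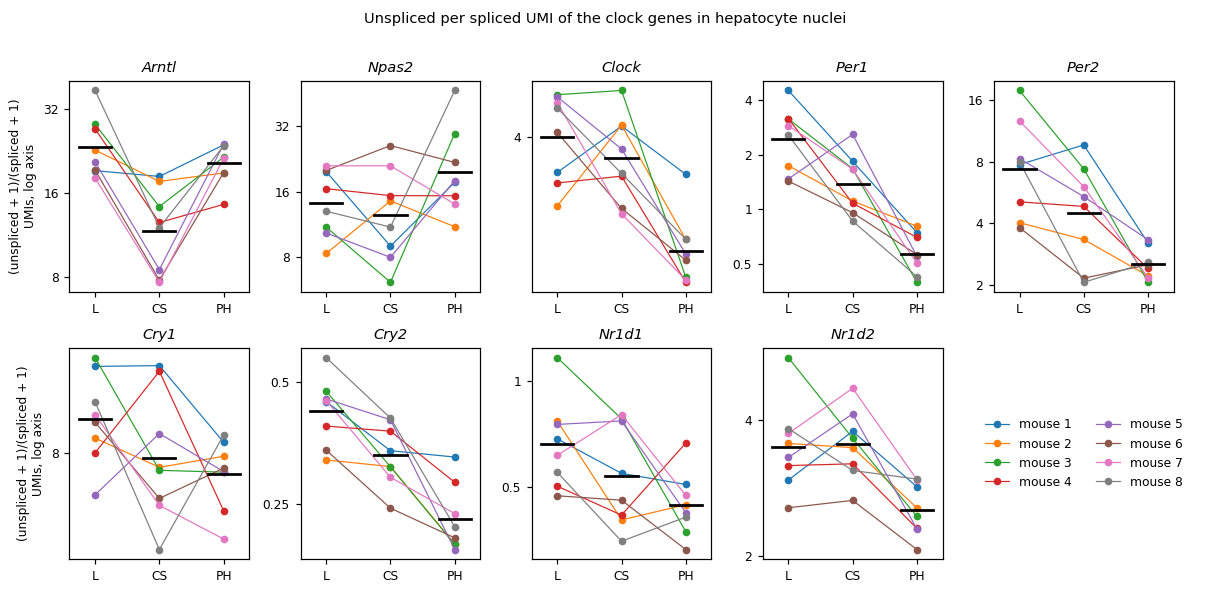
Unspliced per spliced UMI (1 added to each) of 9 clock genes in hepatocyte nuclei on a log2 axis, with 1 coloured line per mouse (n = 8) and black bars at the mean of the log2 ratios, for Liver (L), suspension (CS) and culture (PH). Per1 falls from a mean ratio of 2.65 in Liver to 0.585 after culture, and Arntl is lowest in Cell Suspension.

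The clock genes were measured in endothelial nuclei with between 0 and 567 UMIs per sample and gene, and for some members the order of the mice in Liver was that of the hepatocyte nuclei. Arntl measured 141, 42.7, 171, 25.9, 101, 6.32, 98.3 and 33.6 CPM in the Liver of mice 1 to 8, with mice 2, 4, 6 and 8 again the 4 lowest, and its SD of 1.52 was at percentile 99.9 of 9097 genes. The lowest values, L6 and L4, rest on 3 and 14 UMIs, where the other Livers held 31 to 409, so this SD rests in part on small counts. Npas2 was also lower in each of mice 2, 4, 6 and 8 (1.33 to 6.32 CPM) than in the others (8.69 to 20.1 CPM), but on 1 to 4 UMIs in the former and 6 in L1, so that this gap lies within counting error. Per2 lay at 37 to 56.8 CPM in mice 2, 4, 6 and 8 and at 7.54 to 26.7 CPM in mice 1, 3, 5 and 7, and Per3 at 42.7 to 64 and 11.3 to 27.6 CPM. Per1 (up to 26 against 0 to 6.43 CPM), Cry1 (18.5 to 21.7 against 5.51 to 14 CPM) and Cry2 (14.8 to 18.5 against 7.54 to 14 CPM) were ordered alike, on 24 UMIs or fewer per sample, so that gaps as small as that of Cry2 lie within counting error. Hepatocyte markers in the endothelial nuclei of these Livers stood at 19.7% to 33.7% of their level in hepatocyte nuclei. The part of hepatocyte RNA in the shared order of the mice was not tested. In Liver, Nr1d2 lay at 188 to 218 CPM in mice 2, 4, 6 and 8 and at 118 to 130 CPM in mice 1, 3, 5 and 7. In hepatocyte nuclei the Nr1d2 levels of these 2 sets of Livers were 220 to 262 and 188 to 221 CPM, and the difference between the cell types was not tested. Clock lay at 137 to 238 CPM and did not divide the mice, its 2 lowest values coming from mice 4 and 6. Nr1d1 differed in order from the hepatocyte nuclei: it was lowest in mice 1, 7 and 3 (20.2, 25.7 and 28.9 CPM) and highest in mice 2 and 4 (56 and 53.6 CPM), where hepatocyte nuclei had it lowest in mice 6 and 8. The exact permutation test of Liver with Cell Suspension by mouse called 0 of 9 members and 0 (0%) of 9053 genes in endothelial nuclei, with 2 members at an unadjusted p under 0.05 and a median r of 0.093 over all genes.

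The cell types also differed in level. Arntl was higher in endothelial than in hepatocyte nuclei in 7 of 8 Livers, 8 of 8 Cell Suspensions and 8 of 8 Primary Hepatocyte samples, with a mean log2 difference (hepatocyte minus endothelial) of -0.77, -1.0 and -1.15. Per2 and Cry2 were higher in hepatocyte nuclei in all 8 samples of each group, by 1.67 and 1.66 on average in Liver. Per1 was higher in hepatocyte nuclei in 8 of 8 Livers, at 9.81 to 61.3 CPM against 0 to 26 CPM, and in 4 of 8 Primary Hepatocyte samples. These levels were not tested between the cell types. L1 held 0 Per1 UMIs among 653612 endothelial UMIs, which allows up to 4.59 CPM. Per3 was at 0 in PH2 and PH7, Nr1d1 in PH7 and Npas2 in CS5, where 0 allows up to 27.3, 31.5, 31.5 and 7.61 CPM, limits that cover counting error only. These limits, like that of L1, are 3 UMIs over the raw sum without TMM factors. With TMM factors 3 UMIs in PH7 stand at 26.9 CPM.

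From Liver to Cell Suspension, 1 of 10 members passed in endothelial nuclei, against a background of 3.90% of 18279 genes by edgeR, and with the mouse as a block it was again 1 against 3.75%. That member was Per1, at 10.7 ± 8.66 CPM in Liver and 26.9 ± 7.96 CPM in Cell Suspension (SD, n = 8), higher in 8 of 8 mice, with a log2 fold change of 1.33 (SE 0.37, adjusted p = 0.0299 by edgeR). The call was lost without mouse 1 (1.26, adjusted p = 0.0522), 3 (1.16, adjusted p = 0.114), 4 (1.33, adjusted p = 0.0535), 5 (1.23, adjusted p = 0.0679) or 6 (1.31, adjusted p = 0.0645), with spliced UMIs alone (0.65, adjusted p = 0.513), with sums thinned to the smallest sample (1.13, adjusted p = 0.525) and with the pool in the fit (1.44, adjusted p = 0.0785), which called 1.83% of all genes. Nr1d1, which rose in hepatocyte nuclei, stood at -0.12 (SE 0.30, adjusted p = 0.885 by edgeR) in endothelial nuclei. The other members that did not pass were Arntl at -0.09, Npas2 at -0.16, Clock at -0.14, Per2 at -0.64 (adjusted p = 0.353 by edgeR), Per3 at -0.23, Cry1 at 0.56 (adjusted p = 0.45), Cry2 at 0.12 and Nr1d2 at 0.09.

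After culture, endothelial-like nuclei had 4 members higher than in Liver (Arntl, Per1, Cry1 and Cry2) and 3 lower (Per3, Nr1d1 and Nr1d2), against a background of 33.8% of genes by edgeR (7 members against 30.5% with the mouse as a block). Per1 lay at 26.9 to 58.4 CPM with a median of 48.7, where its highest Liver value was 26 CPM. The lowest of these, PH7, rests on 3 UMIs, so that a separation could not be told at this depth. Per1 had a log2 fold change of 2.20 (SE 0.32, adjusted p = 2.4e-07 by edgeR). Cry1 had a log2 fold change of 1.57 (SE 0.29, adjusted p = 2.87e-05 by edgeR), Cry2 0.97 (SE 0.26, adjusted p = 0.00296) and Arntl 0.87 (SE 0.32, adjusted p = 0.0318). Arntl was higher in 7 of 8 mice, at 44 to 243 CPM in Primary Hepatocytes, and its call was lost without mouse 5 (0.78, adjusted p = 0.0932) or 6 (0.69, adjusted p = 0.0941). With the pool in the fit, Arntl (0.46, adjusted p = 0.469), Cry1 (1.08, adjusted p = 0.0678) and Cry2 (1.00, adjusted p = 0.0816) did not pass. The share of all genes called in that fit fell to 17.9%. With spliced UMIs alone edgeR did not call Arntl (0.61, adjusted p = 0.359) or Cry2 (0.64, adjusted p = 0.19), and with thinned sums it did not call Cry2 (1.36, adjusted p = 0.0751) or Nr1d2 (-0.63, adjusted p = 0.08).

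On the falling side, Per3 stood at -2.0 (SE 0.40, adjusted p = 7.98e-05 by edgeR), Nr1d1 at -2.02 (SE 0.35, adjusted p = 1.06e-05) and Nr1d2 at -0.97 (SE 0.22, adjusted p = 0.000431) in endothelial nuclei against Liver. Nr1d1 was measured at 0 to 20 CPM after culture and at 20.2 to 56 CPM in Liver, but the 0 of PH7 allows up to 31.5 CPM (26.9 CPM with TMM factors), so an overlap could not be told at this depth. Nr1d2 reached 188 CPM in PH7 and overlapped with Liver. Clock, at -0.38 (adjusted p = 0.0695 by edgeR), passed without mouse 6 (-0.47, adjusted p = 0.0384) and with only the nuclei whose annotation matches the sample type (-0.61, adjusted p = 0.00734). Per2 stood at 0.23 (SE 0.28, adjusted p = 0.578 by edgeR) and Npas2 at 0.33 (SE 0.40, adjusted p = 0.562), where hepatocyte nuclei had called changes, but with spliced UMIs alone edgeR called Per2 as higher (1.27, adjusted p = 0.0223). Against Cell Suspension, 1 member was higher (Cry1, 1.01, adjusted p = 0.0285) and 3 were lower (Per3, -1.77, Nr1d1, -1.90, and Nr1d2, -1.07), against a background of 20%. That Cry1 call was lost without mouse 1 (0.94, adjusted p = 0.0877), 5 (0.77, adjusted p = 0.169) or 6 (0.91, adjusted p = 0.0874), with the pool in the fit (0.64, adjusted p = 0.263), with unspliced UMIs alone (0.86, adjusted p = 0.09), with thinned sums (0.91, adjusted p = 0.201) and in DESeq2 (0.93, adjusted p = 0.0583). By edgeR Per3 was not called with the pool in the fit (-1.27, adjusted p = 0.0561), in which 15.9% of all genes were called and in which Per1 passed as higher (1.06, adjusted p = 0.0368). Nr1d1 was not called with unspliced UMIs alone (-1.53, adjusted p = 0.19 by edgeR). Nr1d2 was not called with spliced UMIs alone (-0.64, adjusted p = 0.147 by edgeR), where Per1 passed as higher (1.55, adjusted p = 0.000949). Several members lay close to the threshold there: Arntl (0.96, adjusted p = 0.0522 by edgeR) passed without mouse 1, 3 or 4, Per1 (0.87, adjusted p = 0.0605) without mouse 2 or 8, Per2 (0.86, adjusted p = 0.0884) without mouse 3 or 8, and Cry2 (0.85, adjusted p = 0.0527) without mouse 4 or 8, so that 7 members passed without mouse 8, against 19.3% of all genes. Arntl also passed with thinned sums (1.62, adjusted p = 0.000354 by edgeR), with unspliced UMIs alone (1.11, adjusted p = 0.0231), without a filter on low counts (0.98, adjusted p = 0.00567), with filterByExpr (1.03, adjusted p = 0.0398) and with matching annotation (1.05, adjusted p = 0.027). Per1 passed without the filter (0.90, adjusted p = 0.0323 by edgeR) and with filterByExpr (0.95, adjusted p = 0.0385). With RLE size factors Arntl passed too (1.01, adjusted p = 0.039 by edgeR), as did Cry2 (0.89, adjusted p = 0.0415), which DESeq2 called too (0.90, adjusted p = 0.0423). Npas2 (0.49, adjusted p = 0.575 by edgeR) and Clock (-0.24, adjusted p = 0.387) did not pass. With the mouse as a block, 7 members passed against 18.2% of all genes, the additions being Arntl (1.10, adjusted p = 0.000743), Per1 (0.84, adjusted p = 0.0469) and Per2 (0.84, adjusted p = 0.0459). Hepatocyte markers in these nuclei summed to 2299 to 4621 CPM in Liver and 1700.1 to 5420 CPM after culture, while their level in the hepatocyte nuclei fell, which left the median share of 60.65% given above. Their part in the endothelial changes was not tested.

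**Figure D5:**
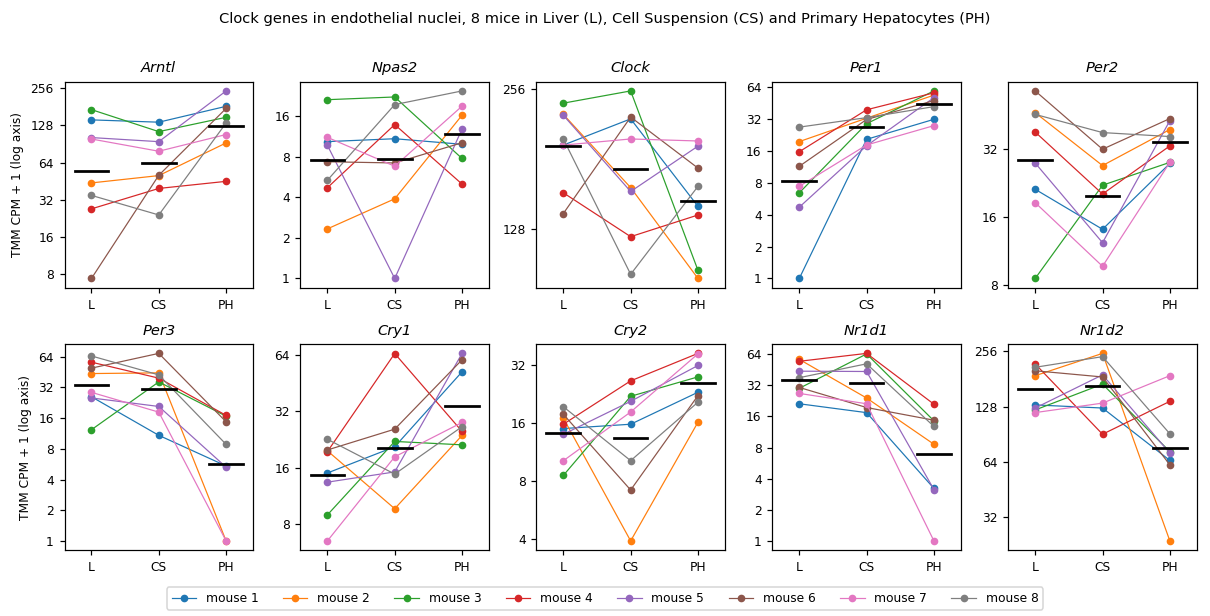
Levels of the 10 clock genes in endothelial nuclei, as TMM CPM + 1 on a log2 axis, in Liver (L), suspension (CS) and culture (PH), with 1 coloured line per mouse (n = 8) and black bars at the mean of the log2 values. Points at 1 are samples with 0 UMIs. Per1 measured 26.9 CPM or more after culture and 26 CPM or less in Liver, with 3 UMIs in PH7, and Nr1d1 was measured at 20 CPM or less, with 0 UMIs in PH7, which allows up to 31.5 CPM without TMM factors.

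Whether the cell types differed in their response was tested on the hepatocyte minus endothelial difference of log2(CPM + 1) within each sample in limma. From Liver to Cell Suspension 0 of 10 members passed, against a background of 1.54% of 18212 genes, with 2 members, Per2 and Nr1d1, at an unadjusted p under 0.05. From Liver to Primary Hepatocytes 3 passed against 28.1%. Npas2 differed by 2.19 in hepatocyte and 0.65 in endothelial nuclei (difference 1.53, SE 0.52, adjusted p = 0.0248 by limma), Per1 by 1.09 and 2.45 (difference -1.36, SE 0.32, adjusted p = 0.00113), and Per2 by -0.95 and 0.27 (difference -1.21, SE 0.24, adjusted p = 0.000173). The endothelial side of Npas2 rests on 1 to 48 UMIs per Liver and 1 to 12 UMIs per Primary Hepatocyte sample. The Npas2 difference was lost without mouse 1 (1.45, adjusted p = 0.0732), 3 (1.25, adjusted p = 0.101) or 6 (1.48, adjusted p = 0.0569), and with the pool in the fit, as was that of Per2 (1.96, adjusted p = 0.0707, and -0.79, adjusted p = 0.0787). Without cluster 0 the Npas2 difference was 0.19 (adjusted p = 0.841 by limma), and Arntl passed against Liver (-1.08, adjusted p = 0.0033) and against Cell Suspension (-0.84, adjusted p = 0.0226). From Cell Suspension to Primary Hepatocytes 3 passed against 26.9%, namely Per2 (-1.77, SE 0.24, adjusted p = 6.58e-07 by limma), Nr1d1 (-1.54, SE 0.47, adjusted p = 0.0128) and Per1 (-0.94, SE 0.32, adjusted p = 0.0244), the last lost without mouse 2 (-0.86, adjusted p = 0.0754), 5 (-0.85, adjusted p = 0.0836) or 8 (-0.87, adjusted p = 0.0748). Arntl, Clock, Per3, Cry1, Cry2 and Nr1d2 passed in no comparison with 1 CPM added and all clusters, and for Nr1d2 the difference against Liver was 0.00 with an SE of 0.29. With 0.5 CPM added the Per1 difference against Cell Suspension was lost (-0.95, adjusted p = 0.0634), and with 5 CPM added Per3 passed against Liver (-0.94, adjusted p = 0.0156) and Npas2 against Cell Suspension (1.04, adjusted p = 0.0108). That Npas2 difference also passed without mouse 2 (1.5, adjusted p = 0.0376 by limma) or 5 (1.55, adjusted p = 0.0261).

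The wider clock was read from lists chosen with earlier results of these data known. Of 18 genes of the secondary loop and of clock regulation, 3 were higher and 10 lower in hepatocyte nuclei of Primary Hepatocytes than in Liver (edgeR, background 53.7%), with a median log2 fold change of -1.27 against 0.1 over all genes. Of the PAR bZIP activators that bind D-boxes, Hlf stood at -4.62, Dbp at -3.98 and Tef at -1.91, all from edgeR and all called. Per3, whose window holds the pair of D-box matches shown above, stood at -3.73 in the same comparison, and the part of these factors in its change was not tested. Fbxl21, an F-box protein that acts on CRY, stood at -3.74, and the repressor Bhlhe41 (DEC2) at -1.89, both called, while Csnk1e, the casein kinase that phosphorylates PER, rose by 2.34. In Cell Suspension against Liver 3 of the 18 were higher and 2 lower (background 22.3%), and with the mouse as a block 7 were called (23.5% of all genes). In Primary Hepatocytes against Cell Suspension 3 were higher and 11 lower (background 50.4%).

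Of 10 clock-controlled output genes of liver, 1 was higher and 5 lower than in Liver, against a background of 53.7% of all genes, with a median of -0.64. With the mouse as a block edgeR called 8 of the 10 (53.4% of all genes), adding Wee1 (0.74, adjusted p = 0.00223, higher in 8 of 8 mice) and Nampt (0.77, adjusted p = 0.000453, higher in 7 of 8). Cyp7a1, the rate-limiting enzyme of bile acid synthesis, stood at -6.69, Gys2, the liver glycogen synthase, at -5.28, the deubiquitinase gene Usp2 at -3.00, Alas1, the first enzyme of haem synthesis, at -2.79 and Por, the cytochrome P450 reductase, at -0.95, all called by edgeR. Lonrf3 was the member that rose, by 2.18. Of 8 glucocorticoid-induced genes, 5 were higher and 3 lower than in Liver, with Pdk4 at 2.12, Sgk1 at 1.8 and Dusp1 at 1.33 among the former and Tat at -4.31, Lpin1 at -2.29 and Tsc22d3 at -2.10 the latter. All 8 immediate early genes were higher than in Liver, with a median of 2.52, led by Btg2 at 3.94, Atf3 at 3.60, Egr1 at 3.52 and Fos at 3.20, followed by Ier2 at 1.84 and Fosb at 1.67. The culture medium contained dexamethasone, which was present in every cultured sample and in no other, so that medium and culture cannot be told apart.

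The genes whose levels most resembled those of Arntl were sought over the 16 Liver and Cell Suspension samples of hepatocyte nuclei, after the mean of each group was subtracted, among 8394 genes that averaged 10 CPM or more, leaving out the members. As a measure of likeness only, since the samples fall into separate sets, Pearson's r with Arntl was 0.988 for Gm31508, 0.982 for Lgals9, which encodes the lectin galectin-9, 0.960 for Gm31333, 0.953 for Abcb11, the bile salt export pump, and 0.953 for Gm32017. Among the most opposite genes were Usp2 (-0.957), Marveld1 (-0.944), Ces1d (-0.936) and Mfsd2a (-0.933). For Nr1d1 the most alike were Gstm1 (0.922), Wdtc1 (0.916), Tgif1 (0.910), Oaz1 (0.909) and Chka (0.897), and none of these genes is shared with the list of Arntl. Among the members, left out of the ranking, Nr1d1 itself had 0.84 with Arntl and 0.792 with Clock. With Per1, Per2 and Per3 it had -0.621, -0.865 and -0.731, so over these samples Nr1d1 went with Arntl and against the Per genes. Paired samples of 8 mice enter these values, so they hold fewer independent points than samples.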

How the data were processed

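Single-nucleus RNA was sequenced in 6 pools of 4 hashtagged samples. The authors demultiplexed reads with bcl2fastq 2.19.0 (from the submitters' processing notes), aligned them with Salmon Alevin and Alevin-fry to spliced and unspliced transcripts of GRCm38, assigned nuclei to samples by mclust on hashtag counts, removed doublets with scDblFinder, and clustered and annotated nuclei in Seurat. The deposited values are raw UMI counts per barcode, gene and splicing state, with the authors' table of 53467 nuclei giving sample, group, cell type and cluster. These nuclei held 61.3% to 70.7% of the UMIs of a pool, and other barcodes were not used. Here the counts were summed per sample over the clusters the authors annotated as hepatocytes, isolated hepatocytes or endothelial cells, and over the clusters annotated only as cultured cells, which were read as another type where the summed markers of that type were at least 5 times the median of the other cultured clusters and as hepatocyte-like otherwise. These rebuilt names may differ from the study's. The replicate is the mouse (n = 8 per group). Samples of the same number come from the same animal according to the study's description. The hashtag sample that the authors name CD2 carries their group label CS and was taken here as CS2, the Cell Suspension of mouse 2. The median r over genes by mouse was 0.562 for Liver with Cell Suspension, 0.052 for Liver with Primary Hepatocytes and -0.113 for Cell Suspension with Primary Hepatocytes. Group differences were fitted with edgeR 4.0.16 (quasi-likelihood, TMM, genes with a summed count of 10 or more, all 3 groups in 1 fit, as in the study's design without a mouse term), with limma 3.58.1 for the splicing ratio (means of at least 20 unspliced and 5 spliced UMIs, 1 added) and for the cell type difference (1 CPM added), all at a Benjamini-Hochberg adjusted p under 0.05 in R 4.3.3. SE is the log2 fold change divided by the root of F. Levels between mice were compared by a two-sided exact permutation test over all pairings. The tests were run on simulated data with 200 changed genes. A set number of these had to be recovered in every check but that of edgeR in endothelial nuclei, where only false calls were limited. The checks of limma and of the pairing test drew normal values in place of counts, so they do not cover small counts. Alternatives were DESeq2 1.42.0, RLE scaling, other filters and pseudocounts, single splicing states, pool as covariate, mouse as block, thinning, matching annotation, leaving out mice, and, chosen after seeing the data, leaving out the low-UMI cluster 8, leaving out the largest cultured cluster 0, and keeping the 6 mice whose samples ran in different pools. Centring within pools was not run. All 10 members were tested by edgeR in every group comparison, and of each further list named are at most 6 genes called in Primary Hepatocytes against Liver with the largest change. Wee1 and Nampt are named besides, and were called in that comparison only with the mouse as a block. The members and lists were chosen with earlier results of these data known. A gene of the likeness ranking is not reported here. Promoter sequences are from RefSeq on GRCm38.p6. UMI counts of hepatocyte sums limit the precision least and those of endothelial sums most, and overlapping or antisense transcripts could share reads.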

Additional observations from a re-analysis of the deposited data

Results flagged for a closer look

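Among 60 sets of 8 samples (10 genes, 3 groups, both cell types), 1 held a sample far from the others by Dixon's test at the usual level, which chance gives in about 1 of 20 sets: Clock in hepatocyte nuclei of PH4 measured 98.6 CPM while the other 7 Primary Hepatocyte samples lay at 121 to 142 CPM. The other 6 values concern responses that differed between hepatocyte and endothelial nuclei by limma's test of the difference, given as hepatocyte minus endothelial on the log2 scale. From Liver to Primary Hepatocytes these were Npas2 at 1.53 (0.19 and not called without cluster 0), Per1 at -1.36 and Per2 at -1.21. From Cell Suspension to Primary Hepatocytes they were Per1 at -0.94, Per2 at -1.77 and Nr1d1 at -1.54. The summed hepatocyte markers of the endothelial nuclei stood at a higher share of the level in hepatocyte nuclei after culture, and their part in these differences was not tested.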

How the results depend on the processing

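Liver and Primary Hepatocytes shared only pools 2 and 5, so a fit with the pool cannot fully separate pool from group. With the 10x pool as a covariate, the number of members called by edgeR in hepatocyte nuclei was 0 of 10 for Cell Suspension against Liver (2 at an unadjusted p under 0.05, 2 called by DESeq2 without the pool) and 4 for Primary Hepatocytes against Liver, and in endothelial nuclei it was 0 (1 at an unadjusted p under 0.05, 1 called by DESeq2 without the pool) and 4. The share of all genes called in these 4 fits was 24.6%, 49%, 1.83% and 17.9%, against 22.3%, 53.7%, 3.90% and 33.8% without the pool. With unspliced UMIs alone, of which Per3 has 0 and could not be tested, it was 1 for Cell Suspension against Liver in hepatocyte nuclei (24.4% of all genes) and 2 for Primary Hepatocytes against Cell Suspension in endothelial nuclei (17.4%), where Arntl was gained. Endothelial Per1, the 1 member called from Liver to Cell Suspension, was not called with spliced UMIs alone or with sums thinned to the smallest sample, leaving 0, and leaving out 1 mouse at a time gave 0 to 1. For Primary Hepatocytes against Cell Suspension in endothelial nuclei, leaving out 1 mouse gave 3 to 7. For Liver with Cell Suspension by mouse, 2 members were called with spliced or with unspliced UMIs alone (2.33% and 16.4% of all genes), and 3 to 5 without 1 mouse (4.78% to 13.5%), against 16.9% with all. Thinned sums left 4 members called (10.9% of all genes), and leaving out cluster 8 left 5 (17.6%). With the 6 mice in different pools the count was 0 (median r 0.549 against 0.562), but 720 pairings give no p under 0.00139, so that count says nothing about stability. Per1 in hepatocyte nuclei of Primary Hepatocytes against Liver turned to -0.08 with unspliced UMIs alone. The cause of these changes was not tested.

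With the mouse as a replicate block, the members called from Liver to Cell Suspension, Liver to Primary Hepatocytes and Cell Suspension to Primary Hepatocytes were 2, 8 and 7 in hepatocyte nuclei and 1, 7 and 7 in endothelial nuclei, 4 differed between cell types in any comparison and 8 in their splicing ratio, the last 2 counts as without the block, where 35.1% and 88.1% of all genes were called in any comparison. Over all values of single genes, 1802 kept their side of the threshold, 64 of them with another sign and called in neither fit, 47 gained a call, 70 lost it and 1 reversed. Depth limits the endothelial values most, with a smallest sum of 95289 UMIs.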

Other observations

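In endothelial nuclei the lists around the clock moved as follows, by edgeR. Of 10 clock-controlled output genes of liver, 4 were higher and 4 lower in Primary Hepatocytes than in Liver (background 33.8%), with a median log2 fold change of 0.58, and from Liver to Cell Suspension 0 passed (background 3.90%). Of the 18 genes of the secondary loop and of clock regulation, 3 were higher and 5 lower in Primary Hepatocytes than in Liver, and 1 was higher in Cell Suspension. The 8 immediate early genes were all higher in Cell Suspension (median 3.92) and in Primary Hepatocytes (median 2.41) than in Liver. Of 8 glucocorticoid-induced genes, 5 were higher and 3 lower after culture.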
